A study of Mus musculus with 32 samples.

Results

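A set of 8 genes of red blood cell development was followed on 32 mouse arrays: Gata1, Klf1, Epor, Tfrc, Alas2, Car1, Slc4a1 and Epb42. They were chosen by gene symbol, as the probesets whose annotation names exactly that gene, and each of the 8 had 1 such probeset. The array held 28944 probesets, and 19938 genes had a probeset of their own. Every value below is a log2 RMA value (a background-corrected, normalised probe intensity), so a difference of 1 is a doubling.

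The study asked how loss of Myd88, an adaptor of innate immune receptors, bears on B-cell leukemia in mice that carry 1 functional copy of Pax5, a transcription factor of the B lineage. Leukemic bone marrow came from 6 Pax5+/-;Myd88+/- mice and 6 Pax5+/- mice, and the comparison cells were sorted proB and preB cells from the marrow of 4 WT mice. The other 16 arrays held MACS-selected B220+ marrow cells, called proB cells here, from healthy Pax5+/-;Myd88-/-, Pax5+/-;Myd88+/-, Pax5+/- and WT mice, 4 arrays each. No treatment was given to any group. All mice were of a mixed C57BL/6 and CBA background, and the labels state that animals were kept free of specific pathogens until 2 months of age and then exposed to common pathogens in a conventional facility. The study's methods describe proB cells as taken from mice 2 to 3 weeks old and grown with IL7 on ST2 feeder cells, without naming the Pax5+/-;Myd88-/- genotype. Its sorted WT cells were B220-low and IgM-negative. Whether the leukemic marrow was enriched for blasts before RNA extraction was not given in the sources used here, so in these bulk samples fewer cells of a type and less RNA per cell cannot be told apart.

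Red blood cells arise in the bone marrow from progenitors that respond to erythropoietin through its receptor, Epor. The transcription factors Gata1 and Klf1 turn on the genes for heme synthesis, globins and the red cell membrane, while Tfrc brings in the iron that heme needs. Late erythroblasts and reticulocytes carry very large amounts of a few transcripts, among them those of Alas2, Slc4a1, Car1 and Epb42. Gata1 and Epor also act outside the red lineage, in megakaryocytes and mast cells for Gata1, and Tfrc is used by dividing cells of many kinds.

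Both Gata1 and Alas2 lie on the X chromosome, at chrX:7959260-7976663 and chrX:150547417-150570622 (GRCm38.p6). Promoter windows from RefSeq, 250 bases before to 50 bases after a gene's start, were at hand for 6 of the 8 genes, with 7 windows in all. They were read for the GATA motif (AGATAA or else TGATAA, with the further forms AGATAG and also TGATAG) and for the KLF1 motif CCNCNCCC, on both strands and counting overlapping matches. The windows of Alas2, Epb42 and Epor are printed because Alas2 and Epb42 belong to the late genes that differed between groups, while Epor holds both motifs and differed little. They run 5′ to 3′ on the gene's strand (GRCm38.p6), and capitals mark the bases of either motif.
Alas2, chrX:150547167-150547466 (+ strand): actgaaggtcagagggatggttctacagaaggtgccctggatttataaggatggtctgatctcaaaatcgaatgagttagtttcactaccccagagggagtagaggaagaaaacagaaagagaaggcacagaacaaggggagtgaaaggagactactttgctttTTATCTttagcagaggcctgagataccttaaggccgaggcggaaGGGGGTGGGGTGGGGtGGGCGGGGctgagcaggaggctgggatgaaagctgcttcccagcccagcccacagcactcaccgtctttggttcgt
Epb42, chr2:121036828-121037127 (- strand): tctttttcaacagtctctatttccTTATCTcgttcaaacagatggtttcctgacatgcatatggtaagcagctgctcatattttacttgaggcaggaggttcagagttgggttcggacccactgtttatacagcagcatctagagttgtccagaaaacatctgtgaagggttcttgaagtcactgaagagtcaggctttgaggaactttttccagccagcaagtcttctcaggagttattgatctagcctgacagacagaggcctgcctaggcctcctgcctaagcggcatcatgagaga
Epor, chr9:21963527-21963826 (- strand): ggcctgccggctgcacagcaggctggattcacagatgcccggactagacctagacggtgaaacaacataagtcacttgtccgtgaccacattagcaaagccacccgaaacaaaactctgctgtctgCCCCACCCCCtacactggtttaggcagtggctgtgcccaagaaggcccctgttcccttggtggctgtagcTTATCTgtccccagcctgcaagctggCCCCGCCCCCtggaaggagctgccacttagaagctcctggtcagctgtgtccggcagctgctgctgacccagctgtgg

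The Alas2 window held 1 GATA match, at bases -86 to -81 from the start, and 4 matches to CCNCNCCC between -42 and -19, some of them overlapping. The Epor window held 1 GATA match at -54 to -49 and 4 matches to CCNCNCCC, and the Epb42 window held 1 GATA match at -226 to -221 and none of CCNCNCCC. Over the 7 windows, 4 held a GATA match, 5 held CCNCNCCC and 2 held both, beside 29.8%, 49.5% and 10.2% of all 32851 promoter windows. These matches are a description of the sequence and do not show binding.

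The arrays matched their labelled genotypes at Myd88, which read 7.04 to 7.44 in Pax5+/-;Myd88-/- proB cells, 8.51 to 8.78 in Pax5+/-;Myd88+/- proB cells, 9.21 to 9.35 in Pax5+/- proB cells and 9.22 to 9.63 in WT proB cells. Xist, which is made only from an inactive X chromosome, read above 9 on all 4 arrays of the Pax5+/-;Myd88-/- proB, Pax5+/-;Myd88+/- proB and WT sorted groups and on 0 of 4 arrays of the Pax5+/- and WT proB groups. It read above 9 on 3 of 6 Pax5+/-;Myd88+/- leukemias and 1 of 6 Pax5+/- leukemias. Sex therefore cannot be told apart from genotype where a proB group with Xist is set against one without, nor from cell source between the 2 WT groups, and Gata1 and Alas2 are X-linked. Leukemia arrays of a genotype correlated at 0.967 to 0.991 over all probesets and sorted WT arrays at 0.993 to 0.996. The Pax5+/-;Myd88+/- leukemia replicate 2 stood apart in the erythroid genes, and results that rest on it are given with and without that array.

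Alas2 and Slc4a1 were high in sorted WT cells, low in every proB group and in between in most leukemic marrow. Alas2, the first enzyme of heme synthesis in red cells, read from 6.58 to 11.45 with a median of 7.36 in Pax5+/-;Myd88+/- leukemias and from 6.97 to 9.56 with a median of 7.50 in Pax5+/- leukemias. The sorted WT arrays read 10.76, 11.27, 10.49 and 10.85, and the 16 proB arrays lay between 6.07 and 6.48. All 12 leukemia arrays were above all 16 proB arrays, and 11 of the 12 were below every sorted WT array. The exception, Pax5+/-;Myd88+/- leukemia replicate 2, read 11.45 and was above all 4.

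Slc4a1, the anion exchanger band 3 of the red cell membrane, had the same order. Its level was 8.46, 11.65, 8.39, 7.87, 8.25 and 8.19 in Pax5+/-;Myd88+/- leukemias and 7.68, 8.21, 9.85, 8.05, 8.13 and 8.61 in Pax5+/- leukemias, against 10.35, 10.90, 10.24 and 10.74 in sorted WT cells. The proB arrays lay between 7.05 and 7.33, so that every leukemia array was again above every proB array.

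Car1, a carbonic anhydrase of red cells, and Epb42, the membrane protein 4.2 that binds band 3, were high in sorted WT cells but not generally raised in leukemic marrow. Car1 read 7.15, 8.85, 6.49, 6.71, 6.65 and 6.86 in Pax5+/-;Myd88+/- leukemias and 6.63, 6.67, 6.63, 6.98, 7.97 and 6.70 in Pax5+/- leukemias, against 9.09, 8.76, 7.88 and 8.47 in sorted WT cells, and the proB arrays spanned 6.20 to 7.19. Replicate 2 of the Pax5+/-;Myd88+/- leukemias and replicate 5 of the Pax5+/- leukemias lay within the sorted WT range and the other 10 leukemias below it. Epb42 averaged 6.51 ± 0.77 and 6.02 ± 0.19 in the Pax5+/-;Myd88+/- and Pax5+/- leukemias (SD, n = 6 each), against 7.22 ± 0.22 in sorted WT cells (SD, n = 4). The proB arrays held Epb42 between 5.89 and 6.17, and 11 of the 12 leukemia arrays read 6.38 or less.

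**Figure D1:**
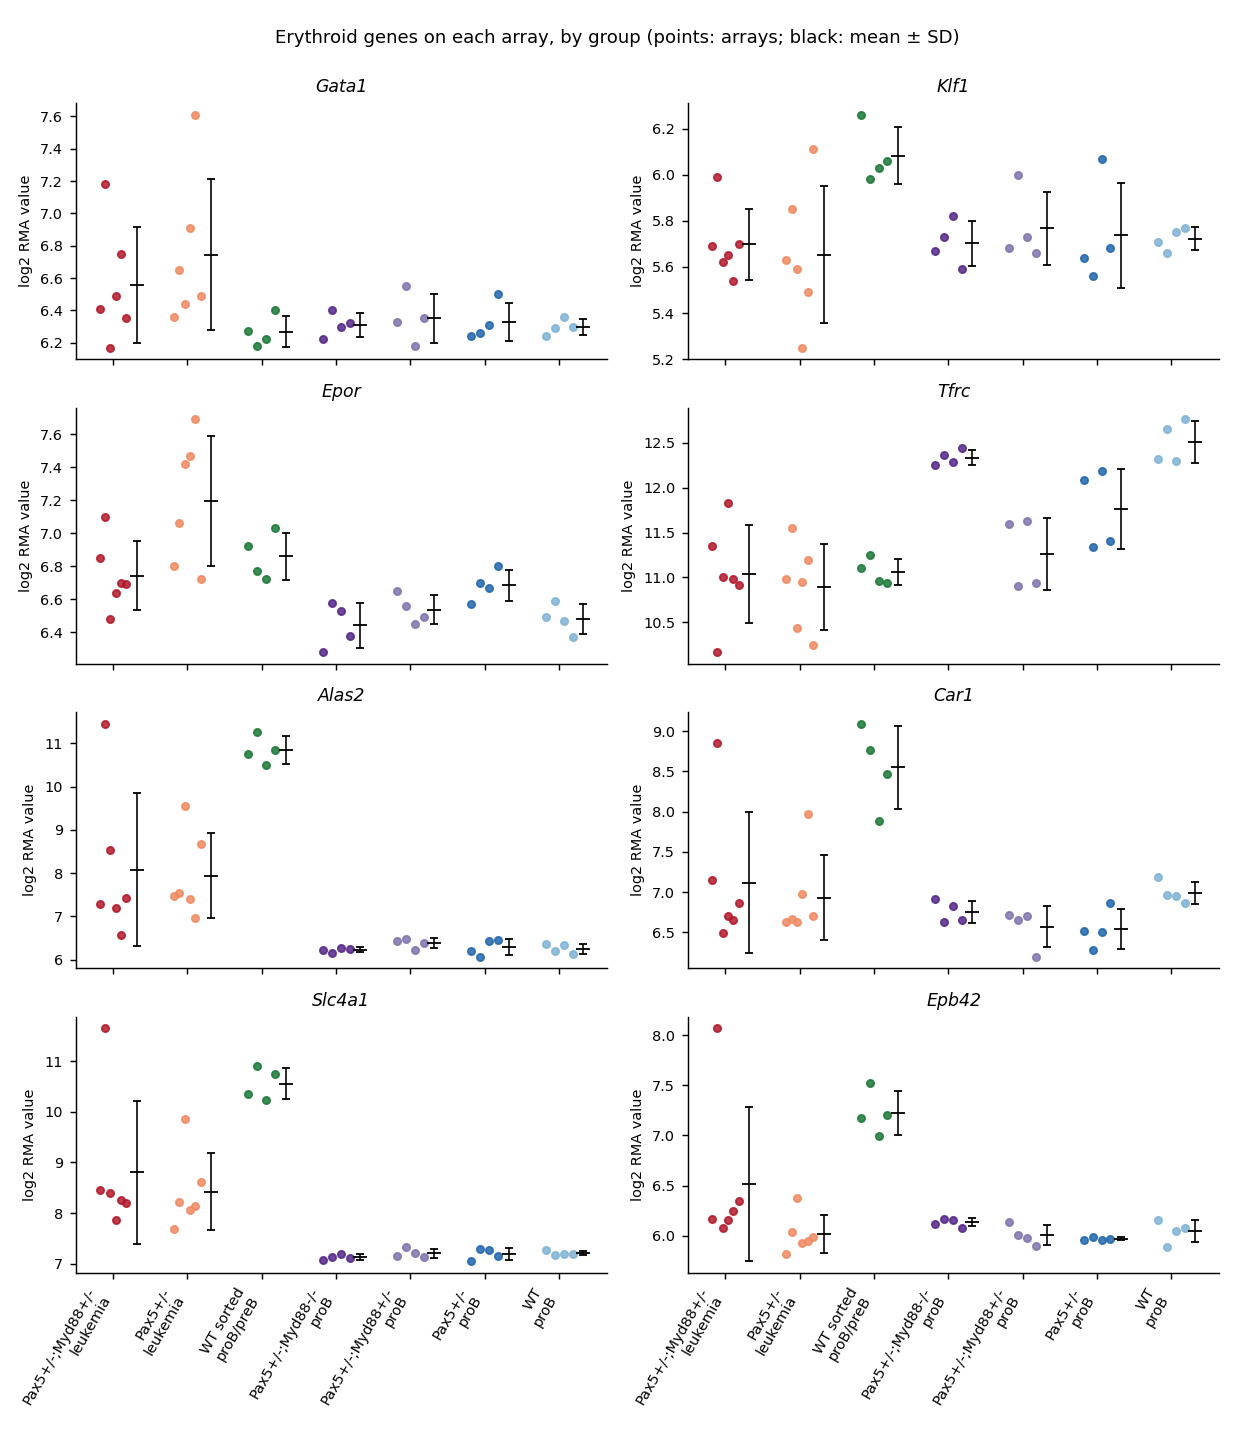
Log2 RMA value (y axis) of each of the 8 erythroid genes on every array, by group (x axis); points are arrays and the black bar is the mean with its SD. By group mean, Alas2 and Slc4a1 were highest in sorted WT cells, at 10.49 to 11.27 and 10.24 to 10.90, and lowest on the proB arrays, while Tfrc was highest in WT and Pax5+/-;Myd88-/- proB cells.

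Of the 8 genes, 4 were lower in Pax5+/- leukemias than in sorted WT cells and 3 in Pax5+/-;Myd88+/- leukemias, where a gene counts as called if it passed both an adjusted p of 0.05 (limma, Benjamini-Hochberg over all probesets) and a doubling or halving of the level. In Pax5+/- leukemias Alas2 differed from sorted WT cells by -2.91 ± 0.76 (SE), which is 7.49-fold lower (adjusted p = 0.0116), and Slc4a1 by -2.14 ± 0.60 (adjusted p = 0.018). Car1 differed by -1.62 ± 0.41 (adjusted p = 0.00963) and Epb42 by -1.20 ± 0.30 (adjusted p = 0.00948). The groups did not overlap in Alas2, Slc4a1 and Epb42, while Car1 in replicate 5, at 7.97, reached into the sorted WT range. The share of all probesets without overlap was not computed. Over all probesets, 1.72% were called lower in this comparison. Without sorted WT replicate 4 Slc4a1 was not called (adjusted p = 0.0517).

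In Pax5+/-;Myd88+/- leukemias the differences from sorted WT cells were -2.76 ± 0.76 for Alas2 (SE, adjusted p = 0.0112), -1.43 ± 0.41 for Car1 (adjusted p = 0.0143) and -1.76 ± 0.60 for Slc4a1 (adjusted p = 0.0376), beside 4.3% of all probesets called lower. Epb42 differed by -0.71 ± 0.30 and was not called (adjusted p = 0.0919). Each of these 4 overlapped between the groups through replicate 2 alone. Without that array all 4 were called, at -3.44 for Alas2, -2.33 for Slc4a1, -1.78 for Car1 and -1.02 for Epb42, with adjusted p between 1e-05 and 0.000208. The Slc4a1 call was lost under 12 of 24 alternative settings (adjusted p from 8.64e-05 to 0.106), and without sorted WT replicate 1 Alas2 was the 1 gene still called.

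Markers of other cells differed in these comparisons too. Of all 28944 probesets, 963 were called higher and 1246 lower in Pax5+/-;Myd88+/- leukemias than in sorted WT cells. For Pax5+/- leukemias 789 were called higher and 497 lower. In Pax5+/-;Myd88+/- leukemias against sorted WT cells, all 6 NK cell markers, 4 of 9 B lineage markers, 3 of 10 markers of dividing cells and 1 of 6 T cell markers were called lower. Called higher were 5 of 8 stroma, 4 of 11 macrophage and 1 of 8 megakaryocyte markers, with 1 macrophage marker lower. In the Pax5+/- leukemias all 6 NK cell markers were again called lower, with 1 marker each of the B lineage, of T cells and of dividing cells, while 6 of 8 stroma, 6 of 11 macrophage and 6 of 8 megakaryocyte markers were called higher. The 12 granulocyte markers had medians of -0.35 and 0.73 and the 7 mast cell and basophil markers -0.24 and -0.01 in the Pax5+/-;Myd88+/- and Pax5+/- leukemias, with no marker called. The called marker with the largest difference was, for NK cells, Ncr1, at -4.03 in Pax5+/-;Myd88+/- and -4.14 in Pax5+/- leukemias. For stroma it was Sparc, at 2.75 and 4.23, and for megakaryocytes and platelets Ppbp, at 2.86 and 6.21. Their part in the erythroid differences was not tested.

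The regulators and receptors differed less. Klf1 differed from sorted WT cells by -0.38 in Pax5+/-;Myd88+/- leukemias (adjusted p = 0.0393) and by -0.43 in Pax5+/- leukemias (adjusted p = 0.0291) and did not reach the fold required for a call. Its values were 5.25 to 6.11 in all 12 leukemias and 5.98 to 6.26 in sorted WT cells, close to the arrays' lower quartiles of 5.52 to 5.71, so a low level and no expression cannot be told apart. Gata1 read 6.17 to 7.18 in Pax5+/-;Myd88+/- leukemias and 6.36 to 7.61 in Pax5+/- leukemias, against 6.18 to 6.40 in sorted WT cells, with differences of 0.29 ± 0.22 and 0.48 ± 0.22 (SE, adjusted p = 0.361 and 0.135). Tfrc, the transferrin receptor, differed by -0.02 (95% CI -0.61 to 0.57) in Pax5+/-;Myd88+/- leukemias and by -0.17 (95% CI -0.76 to 0.42) in Pax5+/- leukemias. Epor differed by -0.12 (95% CI -0.49 to 0.25) and 0.33 (95% CI -0.04 to 0.70) in the same order of genotypes.

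Between the 2 leukemia genotypes, limma called 0 of the 8 genes, beside 3.81% of all probesets called in either direction. At an unadjusted p under 0.05 there was 1, Epor, and the methods' t-test called 0. Epor read, in Pax5+/-;Myd88+/- leukemias, 6.85, 7.10, 6.48, 6.64, 6.70 and 6.69, against 6.80, 7.06, 7.42, 7.47, 7.69 and 6.72 in Pax5+/- leukemias. The difference was -0.45 ± 0.16 (SE, adjusted p = 0.0357), short of the fold required, and the groups overlapped. An adjusted p under 0.05 was reached by 9952 of all 28944 probesets here, with or without the fold. For Alas2 the interval of the difference ran from -1.30 to 1.59 and for Slc4a1 from -0.77 to 1.53, wide enough to hold a doubling either way in Alas2. Without Pax5+/-;Myd88+/- leukemia replicate 2 the differences were -0.53 for Alas2, -0.19 for Slc4a1 and -0.52 for Epor (adjusted p = 0.364, 0.656 and 0.0191).

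**Figure D2:**
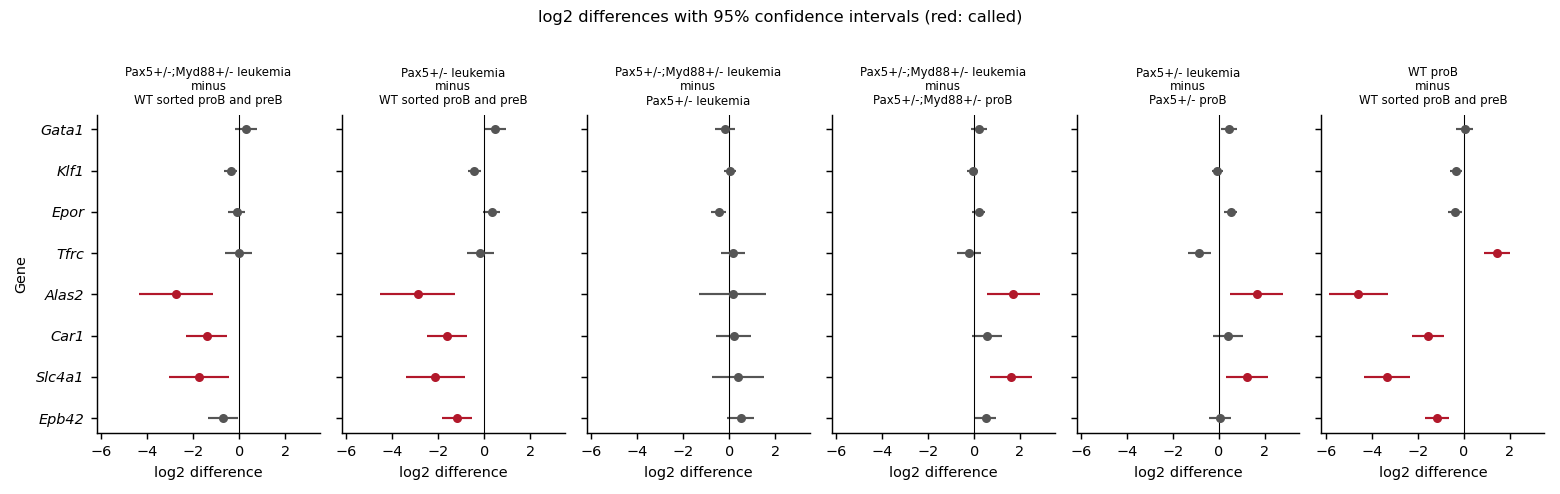
Log2 difference (x axis) of each erythroid gene (y axis) in 6 comparisons; points are the limma estimates, bars their 95% confidence intervals, and red marks called genes. Called differences lie at Alas2, Car1, Slc4a1, Epb42 and Tfrc, and no gene is called between the leukemia genotypes.

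Against proB cells of the same genotype, Alas2 and Slc4a1 were higher in leukemic marrow in both genotypes. Leukemic marrow and MACS-selected B220+ cells differ in cell source and handling as well as in disease, and these cannot be told apart in this contrast. Alas2 was higher by 1.70 ± 0.56 in Pax5+/-;Myd88+/- mice (SE, adjusted p = 0.0423) and by 1.65 ± 0.56 in Pax5+/- mice (adjusted p = 0.0159), and Slc4a1 by 1.59 ± 0.45 (adjusted p = 0.017) and 1.23 ± 0.45 (adjusted p = 0.0229). These 2 of 8 stand beside 1.95% of all probesets called higher in Pax5+/-;Myd88+/- mice and 6.05% in Pax5+/- mice. In neither genotype did the groups overlap in these genes, and how many of all probesets do the same was not computed. Without Pax5+/-;Myd88+/- leukemia replicate 2 the difference fell to 1.02 for both genes, and Alas2 was no longer called (adjusted p = 0.0578). The Alas2 call in that genotype was lost under 9 of 40 alternatives, among them leaving out leukemia replicate 3. With a fit of only those 2 groups, and by the methods' t-test, neither gene was called in Pax5+/-;Myd88+/- mice. With the WT and Pax5+/- proB arrays averaged in their closely correlated pairs, neither gene was called in Pax5+/- mice (adjusted p = 0.0938 for Alas2 and 0.116 for Slc4a1), and Alas2 was not called in Pax5+/-;Myd88+/- mice (adjusted p = 0.0685). Without Pax5+/- leukemia replicate 3 the Slc4a1 difference in that genotype was 0.94 and not called. The difference between the genotypes in this contrast was called for 0 of the 8 genes by limma, with 0 at an unadjusted p under 0.05.

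In Pax5+/- mice 3 more genes passed the adjusted p without the fold: Epor was higher in leukemic marrow by 0.51 ± 0.14, Gata1 by 0.42 ± 0.17, and Tfrc differed by -0.86 ± 0.25 (SE, adjusted p = 0.00272, 0.0427 and 0.00445). That adjusted p was passed by 15466 of all 28944 probesets, with or without the fold. Markers of other marrow cells also differed in the same contrasts. Of all 28944 probesets, 1752 were called higher and 700 lower in the Pax5+/- contrast. In the Pax5+/-;Myd88+/- contrast 563 were called higher and 259 lower. Of 12 granulocyte markers, 11 were called higher in Pax5+/- leukemias and 4 in Pax5+/-;Myd88+/- leukemias than in proB cells of the same genotype, and of 8 megakaryocyte and platelet markers 7 and 1. Of 11 macrophage markers 8 were called higher in each genotype, and their mean level was 8.18 to 8.93 in Pax5+/- leukemias, against 6.66 to 6.75 in Pax5+/- proB cells. Of 9 B lineage markers 4 were called lower and 2 higher in Pax5+/- leukemias, and 2 lower and 1 higher in Pax5+/-;Myd88+/- leukemias, with Vpreb1, a part of the surrogate light chain, at -3.82 and -1.83, and the B-cell receptor inhibitor Cd22 at 2.15 and 2.10. Their part in the erythroid values was not tested.

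Among the proB groups Alas2, Slc4a1 and Epb42 stayed within narrow ranges and Tfrc did not. Across all 16 proB arrays Alas2 lay between 6.07 and 6.48, Slc4a1 between 7.05 and 7.33 and Epb42 between 5.89 and 6.17. Tfrc read 12.25, 12.36, 12.28 and 12.44 in Pax5+/-;Myd88-/- proB cells, 11.59, 10.90, 11.63 and 10.94 in Pax5+/-;Myd88+/- proB cells, 12.09, 11.34, 12.19 and 11.41 in Pax5+/- proB cells, and 12.32, 12.65, 12.30 and 12.76 in WT proB cells. Pax5+/-;Myd88+/- proB cells had the lowest mean and did not overlap with the Pax5+/-;Myd88-/- or the WT proB cells. Such non-overlap was not counted over all probesets.

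Tfrc differed by -1.24 ± 0.20 in Pax5+/-;Myd88+/- against WT proB cells (SE, adjusted p = 0.000686), the 1 gene of 8 called, beside 0.563% of all probesets called lower. It was higher in Pax5+/-;Myd88-/- than in Pax5+/-;Myd88+/- proB cells by 1.07 ± 0.20 (adjusted p = 0.0032), again 1 of 8, beside 0.57% of all probesets called higher. That call was lost without Pax5+/-;Myd88+/- replicate 2 or 4, at differences of 0.95 and 0.96. In the other 4 proB comparisons 0 of the 8 genes were called by limma and 0 by the methods' t-test, beside 1.28% of all probesets for Pax5+/-;Myd88-/- against WT, 1.08% for Pax5+/- against WT, 0.981% for Pax5+/-;Myd88-/- against Pax5+/- and 0.812% for Pax5+/-;Myd88+/- against Pax5+/- cells. At an unadjusted p under 0.05 they held 0, 3, 3 and 1 of the genes, a threshold for which the share of all probesets was not computed. At an adjusted p under 0.05 without the fold they held 0, 2, 1 and 0, beside 4553, 2042, 3336 and 1246 of all 28944 probesets. Against WT, Pax5+/- proB cells differed in Tfrc by -0.75 (adjusted p = 0.0326), with no overlap between the groups, and in Car1 by -0.45 (adjusted p = 0.0459), both short of the fold required. Xist was high in Pax5+/-;Myd88-/- and Pax5+/-;Myd88+/- proB cells, whose Tfrc levels differed, and low in Pax5+/- and WT proB cells.

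In 3 of the 4 proB genotypes Tfrc fell into pairs of arrays, replicates 1 and 3 against replicates 2 and 4, and in Pax5+/-;Myd88-/- cells the pairs were close. Replicates 1 and 3 averaged 12.27 and replicates 2 and 4 averaged 12.40 in Pax5+/-;Myd88-/- cells, 11.61 and 10.92 in Pax5+/-;Myd88+/- cells, 12.14 and 11.38 in Pax5+/- cells, and 12.31 and 12.71 in WT cells. The difference of Pax5+/-;Myd88+/- from WT cells was -0.70 over replicates 1 and 3 and -1.79 over replicates 2 and 4. Over all probesets these same pairs correlated at 0.998 in WT cells, where other pairs reached 0.991, and at 0.997 and 0.998 in Pax5+/- cells, where other pairs reached 0.995, and the labels do not say what the pairs share. In Pax5+/-;Myd88+/- cells the pairs correlated at 0.995 and 0.997, and other pairs at 0.991 to 0.996. With the WT and Pax5+/- arrays averaged in such pairs and the Pax5+/-;Myd88+/- arrays left as 4, the adjusted p of the Tfrc difference from WT was 0.011 in Pax5+/-;Myd88+/- cells and 0.312 in Pax5+/- cells. That fit does not account for pairs among the Pax5+/-;Myd88+/- arrays, in this difference or in that from Pax5+/-;Myd88-/- cells. By the methods' t-test the Pax5+/-;Myd88+/- call was lost (adjusted p = 0.0579).

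Of the 12 comparisons, the one between the 2 WT groups, proB against sorted cells, held the largest differences in Alas2, Slc4a1 and Tfrc. In WT proB cells Alas2 read 6.12 to 6.36 and Slc4a1 7.18 to 7.26, against 10.49 to 11.27 and 10.24 to 10.90 in sorted WT cells. Alas2 differed by -4.59 ± 0.62 (SE, adjusted p = 6.76e-07) and Slc4a1 by -3.35 ± 0.49 (adjusted p = 2.49e-06). Alas2 in proB cells lay below the array medians of 6.88 to 7.03, where a low level and no expression cannot be told apart, so no fold is given for it. Car1 differed by -1.56 and Epb42 by -1.18, so that 4 of 8 were called lower, beside 6.2% of all probesets. Tfrc was higher in WT proB cells by 1.45 ± 0.27 (adjusted p = 7.51e-05), the 1 gene called higher, beside 3.75% of all probesets. These 5 calls held under all 40 alternatives run on this comparison. Gata1 read 6.24 to 6.36 in WT proB cells and 6.18 to 6.40 in sorted WT cells, a difference of 0.03 (95% CI -0.36 to 0.42). Both ranges lay below the array medians too, so an equal low level and no expression cannot be told apart.

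Markers of other cells differed between the WT groups in both directions. Over all probesets, 6.2% were called lower and 3.75% higher in WT proB cells. All 6 NK cell markers were called lower in WT proB cells than in sorted WT cells, and their mean level was 5.54 to 5.67 in WT proB cells, against 8.26 to 9.07 in sorted WT cells. Of 12 granulocyte markers, 4 were called lower in WT proB cells. Of 8 stroma markers, 5 were called higher in WT proB cells, and their mean level was 7.90 to 8.66 in WT proB cells, against 6.43 to 6.60 in sorted WT cells. The B lineage markers averaged 11.15 to 11.67 in WT proB cells and 11.85 to 12.02 in sorted WT cells. The part of these cells in the erythroid values was not tested.

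Other erythroid genes, 58 by list and 47 with a probeset of their own, were described beside the 8. Called lower than in sorted WT cells were 9 of 47 in Pax5+/-;Myd88+/- leukemias, 7 in Pax5+/- leukemias and 12 in WT proB cells, and 0 were called higher, beside 4.3%, 1.72% and 6.2% of all probesets called lower in the same comparisons. Their median differences were -0.39, -0.26 and -0.44, beside -0.01, -0.03 and 0.04 over all probesets. The largest differences in Pax5+/-;Myd88+/- leukemias were those of Blvrb, a biliverdin reductase, at -2.29 ± 0.32 (SE), Slc11a2, a transporter of ferrous iron, at -2.14 ± 0.14, and Xk and Car2, a membrane protein of the Kell complex and a carbonic anhydrase, at -2.10 ± 0.26 and -1.68 ± 0.60. The largest in Pax5+/- leukemias were Bpgm, the enzyme of bisphosphoglycerate synthesis, at -1.97 ± 0.48, Xk at -1.58 ± 0.26, Slc11a2 at -1.55 ± 0.14 and Rhag, a membrane channel of the Rh complex, at -1.42 ± 0.36. In WT proB cells Blvrb differed by -2.93 ± 0.27, Xk by -2.64 ± 0.22, Car2 by -2.61 ± 0.50 and Bpgm by -2.31 ± 0.40.

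By role, against sorted WT cells, calls lay in every class but the globins. Of 14 membrane and skeleton genes 3 were called lower in each leukemia genotype, of 12 heme and mitochondrial iron genes 2 in Pax5+/-;Myd88+/- and 1 in Pax5+/- leukemias, and of 11 enzymes and iron uptake genes 3 in each. Among 7 further transcription regulators, Cbfa2t3, a corepressor that works with Gata1, was the 1 called, at -1.21 ± 0.25 (SE) in Pax5+/-;Myd88+/- leukemias, and differed by -0.46 ± 0.25 in Pax5+/- leukemias, where it was not called. Whether the shares differ between roles was not tested. The embryonic globins Hba-x, Hbb-y and Hbb-bh1 differed by -0.18, -0.15 and 0.00 in Pax5+/-;Myd88+/- leukemias and by -0.13, -0.23 and 0.03 in Pax5+/- leukemias. Gypc, a glycophorin also made outside the red lineage, differed by -0.56 and 0.21. The probesets of the adult globins name several genes each and were not used.

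Against proB cells of the same genotype, 2 of the 47 were called higher in Pax5+/-;Myd88+/- leukemias, Bpgm at 1.18 ± 0.36 and Fech, the last enzyme of heme synthesis, at 1.11 ± 0.26 (SE), and 0 of 47 without replicate 2. Against Pax5+/- proB cells, Pax5+/- leukemias had 7 called higher and 1 lower, among them Alad, an early enzyme of heme synthesis, at 1.70 ± 0.20, Blvrb at 1.68 ± 0.25, Glrx5, a mitochondrial iron-sulfur protein, at 1.5 ± 0.14 and Gypc at 1.16 ± 0.10. Cbfa2t3 was also called higher there, at 1.16 ± 0.20. The 1 lower was Gfi1b, a repressor that acts beside Gata1, at -1.01 ± 0.24. Over all probesets, 1.95% were called higher in the Pax5+/-;Myd88+/- contrast, and 6.05% higher and 2.42% lower in the Pax5+/- contrast. Between the leukemia genotypes 3 were called lower in Pax5+/-;Myd88+/- marrow, Glrx5 at -1.29 ± 0.12, Blvrb at -1.07 ± 0.29 and Alad at -1.04 ± 0.21, beside 2.56% of all probesets called lower. In proB cells Car2 was higher in Pax5+/-;Myd88+/- than in WT cells by 1.65 ± 0.14 (adjusted p = 6.73e-07), the 1 of 47 called, beside 0.587% of all probesets called higher.

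**Figure D3:**
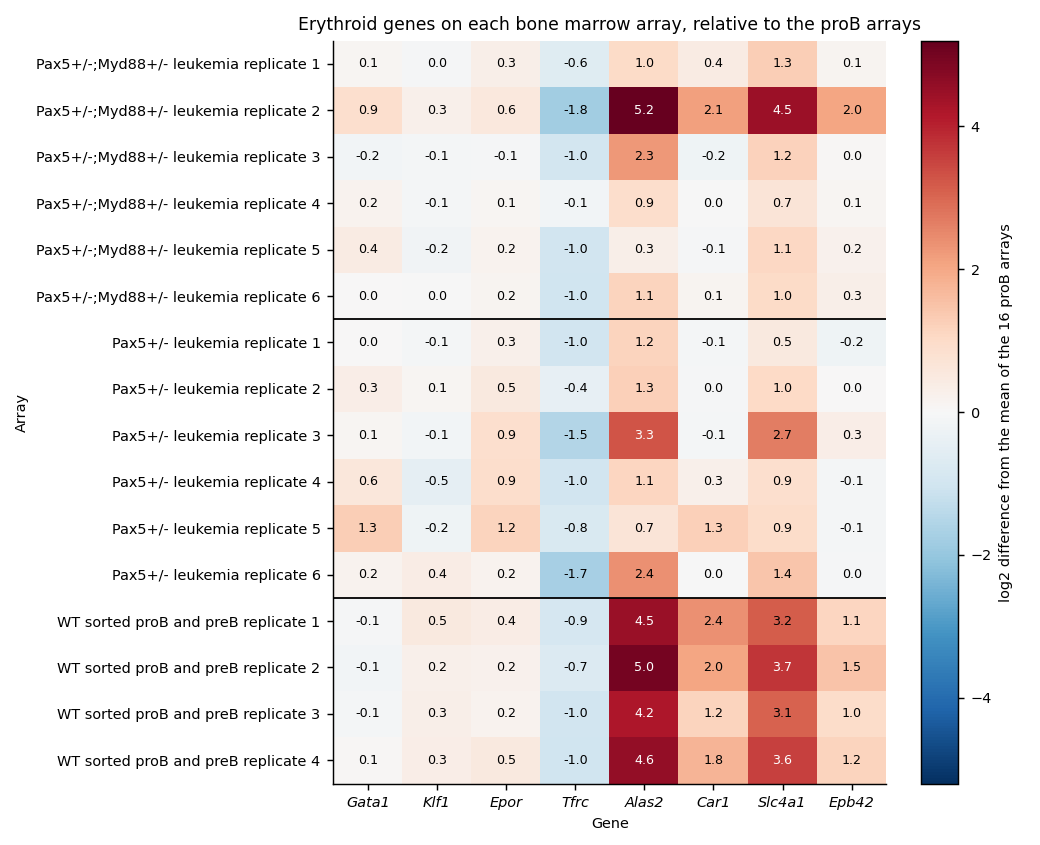
Log2 difference of each erythroid gene (columns) from its mean over the 16 proB arrays on each leukemia and sorted WT array (rows), printed in each cell and shown by colour. Pax5+/-;Myd88+/- leukemia replicate 2 has the pattern of the sorted WT arrays in Alas2, Slc4a1, Car1 and Epb42, with 5.16 for Alas2.

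A single array set most of the spread in the Pax5+/-;Myd88+/- leukemias. In replicate 2, Alas2, Slc4a1 and Epb42, at 11.45, 11.65 and 8.07, were above all 4 sorted WT arrays, and Car1, at 8.85, was within their range. Gata1 and Epor were also above the sorted WT range there, at 7.18 and 7.10, while Tfrc, at 10.17, was the lowest of all 32 arrays. The list of other erythroid genes averaged 8.29 on that array, the highest of the 6, against 7.68 to 7.82 on the other 5. The mean of 8 megakaryocyte and platelet markers was 9.05 on that array, against 6.37 to 8.36 on the other 5, and that of 8 stroma markers was 9.89, against 7.22 to 8.21. Its macrophage markers averaged 9.28, also the highest but close to the next, against 6.77 to 9.26. Its B lineage markers averaged 9.69, the lowest of the 6 arrays but close to the next, with the other 5 at 9.77 to 11.77. Its dividing-cell markers averaged 10.28, also the lowest, against 10.50 to 11.11. The part of these cells in the array's erythroid values was not tested.

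In Pax5+/- leukemias the 8 genes did not peak on the same array. Replicate 5 had the highest Gata1, Epor and Car1, at 7.61, 7.69 and 7.97, and the lowest Alas2, at 6.97. Replicate 3 had the highest Alas2, Slc4a1 and Epb42, at 9.56, 9.85 and 6.38, with Gata1 at 6.44 and Car1 at 6.63. The megakaryocyte and platelet markers averaged 10.11 on replicate 5, against 7.87 to 9.61 on the other 5 arrays, and the mast cell and basophil markers 6.15, against 5.55 to 7.22. The list of other erythroid genes was also highest on replicate 5, at 8.15 against 7.94 to 8.09. So were the dividing-cell markers, at 11.25 against 10.88 to 11.19. The part of any of these cells in the values of replicate 5 was not tested.

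**Figure D4:**
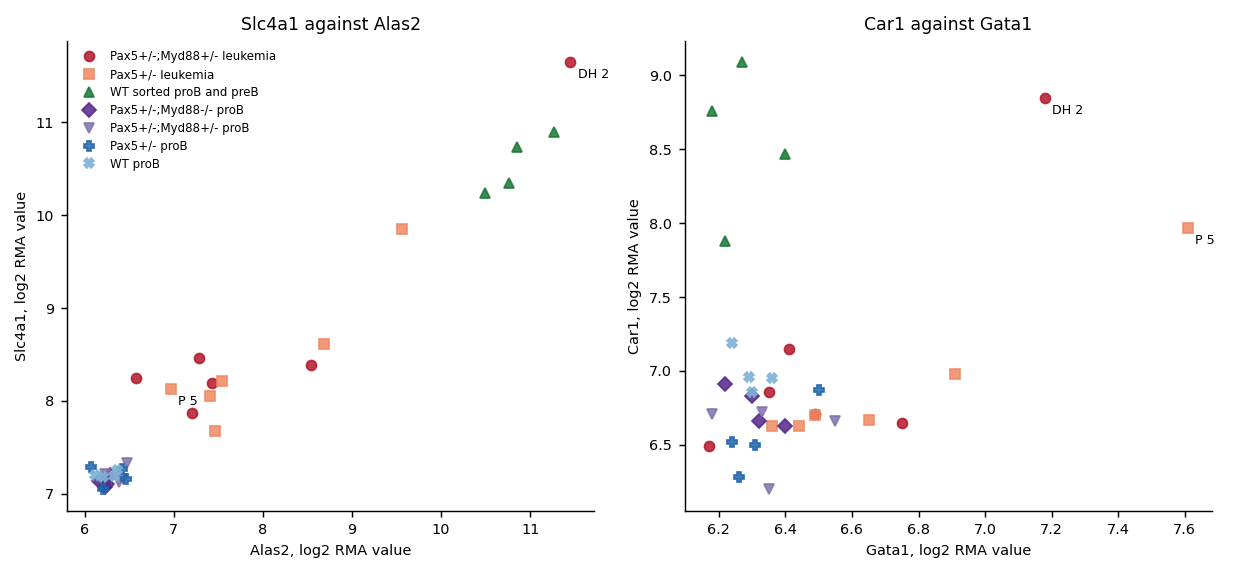
Slc4a1 against Alas2 (left) and Car1 against Gata1 (right) on all 32 arrays, as log2 RMA values; each symbol is an array of the named group, and DH 2 and P 5 mark Pax5+/-;Myd88+/- leukemia replicate 2 and Pax5+/- leukemia replicate 5. Slc4a1 follows Alas2 across the groups, while the sorted WT arrays have high Car1, at 7.88 to 9.09, with Gata1 at 6.18 to 6.40.

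Correlation between the genes was examined within each leukemia genotype over 6 arrays, in 28 pairs per genotype and 56 in all. In Pax5+/-;Myd88+/- leukemias the median Pearson r was 0.84, all 21 pairs without Tfrc were above 0, and all 7 pairs with Tfrc were below 0. Without replicate 2 the median was 0.17, so the value rests largely on that array. For Pax5+/- leukemias the median was -0.06 and 14 of 28 pairs were above 0. After Benjamini-Hochberg adjustment over the 56 pairs 0 passed in either genotype, with a smallest adjusted p of 0.181 from the exact permutation test (two-sided), and 7 and 3 pairs were under 0.05 before adjustment.

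The highest correlation joined the membrane genes in Pax5+/-;Myd88+/- leukemias and a regulator to Car1 in Pax5+/- leukemias. Slc4a1 and Epb42 in Pax5+/-;Myd88+/- leukemias had r = 0.98 and Spearman's rho = 0.31 (exact permutation p = 0.107 for r, adjusted p = 0.236), and r was -0.83 over the 4 arrays left when the 2 farthest from the median were taken out. Gata1 and Car1 had, in Pax5+/- leukemias, r = 0.98 and rho = 0.93 (exact permutation p = 0.00833, adjusted p = 0.181), with r = 0.56 over the 4 arrays left. Slc4a1 and Epb42 there had r = 0.97 and rho = 0.94 (exact permutation p = 0.00972, adjusted p = 0.181), with r = 0.41 over the 4 arrays left, and Alas2 and Slc4a1 had r = 0.91 and rho = 0.77 (exact permutation p = 0.0181, adjusted p = 0.183). With Gata1, Alas2 had r = -0.61 in the same leukemias.

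Genes whose levels followed the erythroid genes most closely were sought among the 21789 probesets naming 1 gene, by Pearson's r with the mean of the 7 erythroid genes other than Tfrc over the 12 leukemia arrays, each genotype centred on its mean. The highest 8 were Rhag (r = 0.96), Bmp4 (0.96), Tlcd4 (0.96), Tent5c (0.96), Ccr3 (0.95), Esm1 (0.95), Mrap (0.95) and Kel (0.94). Rhag and Kel are genes of red cell blood group antigens. Without Pax5+/-;Myd88+/- leukemia replicate 2, Tent5c kept r = 0.91 over 11 arrays and the other 7 fell to between 0.58 and 0.77. Over those 11 arrays the mean itself had r = 0.89 with Slc4a1, 0.73 with Epb42, 0.64 with Alas2 and 0.46 with Epor. Its r was 0.21 with Car1 and 0.06 with Gata1 and with Klf1, so it represented these genes poorly. Of all such probesets, 44 reached 0.9 over 12 arrays and 3 over 11.

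Tent5c and Rhag were higher in sorted WT cells than on the proB arrays too, but unlike Alas2 their leukemia arrays overlapped with proB arrays. Tent5c read 7.10 to 11.24 in Pax5+/-;Myd88+/- leukemias and 7.16 to 9.55 in Pax5+/- leukemias, against 10.23 to 11.26 in sorted WT cells, and 6.94 to 7.94 in Pax5+/-;Myd88+/- proB cells, the highest proB group. Rhag read 4.81 to 7.08 and 4.80 to 5.35 in the same leukemias, against 6.10 to 6.87 in sorted WT cells and up to 4.99 on the proB arrays. In sorted WT cells Rhag lay below the array medians of 6.88 to 7.03. Its proB and Pax5+/- leukemia values lay below the lower quartiles of 5.52 to 5.71, where a low level and no expression cannot be told apart. The high end of Rhag in Pax5+/-;Myd88+/- leukemias was replicate 2, at 7.08, and the median of those leukemias was 4.89. Ccr3 and Esm1 were high on replicate 2, at 8.53 and 8.23, but not in sorted WT cells, where they read 5.60 to 5.86 and 5.36 to 5.75.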

How the data were processed

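Total RNA of 32 samples was hybridised to Affymetrix MoGene 1.0 ST arrays, 1 array a sample, so precision is set by the number of arrays. Per the labels and the study's methods, the authors made the deposited log2 values with Transcriptome Analysis Console 4.0.1 by gene-level RMA (background correction, quantile normalisation and median polish, annotated on mm10), rounded to 2 decimals. Whether all arrays were normalised together was not given in the sources used here. Gene names came from the platform annotation: 21789 probesets name 1 gene, 1621 several and 5534 none.

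Differences were tested with limma 3.58.1 in R 4.3.3 on these log2 values over all 28944 probesets, with no filter: leukemias and sorted WT cells in 1 fit of 16 arrays, proB cells in another of 16, and comparisons across both in a fit of all 32, each over group means. A gene was called at a Benjamini-Hochberg adjusted p under 0.05 and an absolute log2 difference over 1. Whether groups overlapped was read for the named genes only, with no count over all probesets. On simulated data with 200 probesets changed by 1.5, between 181 and 200 were recovered in each comparison, with at most 2 false calls. The simulated arrays were independent, with normal noise of 1 pooled SD per probeset for all groups in a fit. In the data Alas2 had an SD of 1.77 in Pax5+/-;Myd88+/- leukemias and 0.11 in proB cells of that genotype. The simulation therefore does not cover unequal spreads, outlying arrays or paired arrays. Correlations had exact permutation tests over 720 orders of 6 arrays (scipy 1.17.1), for which the smallest p is 0.00278. The labels call the replicates biological, but p-values measure only the spread between these samples.

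Alternatives were another set of arrays in the fit, array-median centring, a second quantile normalisation, a filter on probesets averaging under 6, limma-trend, a replicate block, an ordinary t-test and leaving out each array. The ordinary t-test used only the groups compared, a pooled variance, Benjamini-Hochberg adjustment and the same fold. The study's methods give a p-value under 0.05 and a fold change over 2 for the arrays, with no adjustment named, and that rule was not applied here. The members, the lists of other erythroid and other cell-type genes and the rules were chosen with earlier results of these data known. Named beside the 8 were the other erythroid genes called with the largest differences, at most 4 a comparison, the globins and glycophorin with a probeset of their own, the called member of another list with the largest difference (shown for 4 lists), and the 8 genes most like the members. Cbfa2t3 and Gfi1b were named after their values were seen.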

Additional observations from a re-analysis of the deposited data

Results flagged for a closer look

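There were 6 values that stood far from the rest of their group by Dixon's test, among 56 groups of arrays examined; chance gives about 1 in 20.

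In Pax5+/-;Myd88+/- leukemia, replicate 2 stood far above the next array in Slc4a1 (11.65 against 8.46), Epb42 (8.07 against 6.35), Car1 (8.85 against 7.15) and Klf1 (5.99 against 5.70). In Pax5+/- leukemia, replicate 5 stood far above in Car1, at 7.97 against 6.98. In Pax5+/-;Myd88+/- proB cells, replicate 4 stood far below in Car1, at 6.20 against 6.66 on the nearest array. Alas2 on leukemia replicate 2, at 11.45, did not pass the same test, since replicate 3 read 8.54.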

How the results depend on the processing

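Of the single genes, 0 changed sign past the threshold under any alternative run. For Pax5+/-;Myd88+/- leukemias against sorted WT cells the count of 3 called genes was 0 by the ordinary t-test and 1 to 4 when an array was left out, with 1 without sorted WT replicate 1 and 4 without leukemia replicate 2. For Pax5+/- leukemias against sorted WT cells the count of 4 was 3 to 4 when an array was left out, with 3 without sorted WT replicate 4. For Pax5+/-;Myd88+/- leukemias against proB cells of that genotype the count of 2 was 0 with only the 2 groups in the fit, 0 by the ordinary t-test, 1 with the WT and Pax5+/- proB arrays averaged in pairs (chosen after seeing the data) and 1 to 2 when an array was left out, with 1 without leukemia replicate 2 or 3 or any of the 4 proB arrays. For Pax5+/- leukemias against Pax5+/- proB cells the count of 2 was 0 with that averaging and 1 to 3 when an array was left out, with 1 without leukemia replicate 3. In Pax5+/-;Myd88+/- against WT proB cells the Tfrc call was lost by the ordinary t-test (0 called, adjusted p = 0.0579). In Pax5+/-;Myd88-/- against Pax5+/-;Myd88+/- proB cells it was lost with a second quantile normalisation (0 called; difference 0.80), and 0 to 1 were called when an array was left out. The cause was not tested. The 5 calls in WT proB against sorted WT cells, and the counts of 0 elsewhere, stayed the same in number. Every member had 1 probeset, so the alternative of a second probeset could not be run.

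With the replicate block, Slc4a1 in Pax5+/-;Myd88+/- leukemias against sorted WT cells differed by -1.60 (adjusted p = 0.0844) and was not called, and no other call changed. Same-numbered arrays of different groups deviated together at -0.15 to 0.52 in the leukemia fit (median -0.01). In the proB fit they did so at -0.27 to 0.41 (median 0.09). Differently numbered arrays were not set beside them, so these values do not settle whether the numbers pair any samples.

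The median correlation was 0.37 by Spearman and 0.81 after array-median centring in Pax5+/-;Myd88+/- leukemias, and 0.17 to 0.91 when an array was left out. In Pax5+/- leukemias it was -0.06 by Spearman, -0.17 after centring, 0.07 without Tfrc and -0.16 to 0.12 when an array was left out. Averaging all 8 members in place of 7 left the same 8 genes most like them. The number of arrays, 4 to 6 a group, limits the precision, and the values used here carry no detection calls, so the low end of the scale has no measured floor.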
